A study of Homo sapiens with 3 samples.

Results

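Regions bound by ETS2 and by ZMYND11 (also called BS69) were examined at 9 genes of the translation machinery, 7 of them genes of ribosomal proteins (RPL3, RPL8, RPL13A, RPL18, RPLP0, RPS2 and RPS6) and 2 of them genes of elongation factors (EEF1A1 and EEF2). A region was included where it touched the hg19 span of a gene or the 5 kb on either side. In all, 29 of the 17232 listed regions met this rule. The genes were chosen by the presence and list place of regions at them, seen in earlier results of these lists, so the counts, list places and positions below are a description and carry no test.

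The data are from ChIP-seq, in which DNA bound to a precipitated protein is sequenced and mapped, in the human cell line DU145, an established line grown from a prostate adenocarcinoma that had spread to the brain. ETS2 was precipitated from DU145 cells with ETS1 knocked out, and ZMYND11 was precipitated from DU145 cells with ETS1 knocked out and from parental DU145 cells. Puromycin was in the medium of the selected cells, and whether the knockout line was 1 clone is not given in the sources used here. There was 1 library per group, so no value has a replicate error. The authors deposited a list of about 0.5 kb regions per library, with 1020 regions for ETS2 in knockout cells, 15676 for ZMYND11 in knockout cells and 536 for ZMYND11 in parental cells. No score or read count stands beside a region, so depth and detection limits are unknown and a longer list may come from depth, from the precipitation or from the threshold used, and not only from binding. The lists are not in genomic order. A list place below is the line on which a region was deposited, and what that order stands for is not stated.

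Ribosomal proteins build the large (RPL and RPLP0) and small (RPS) subunits of the ribosome. EEF1A1 brings aminoacyl-tRNA to the ribosome and EEF2 moves the ribosome along the mRNA. These genes are among the most strongly transcribed of dividing cells, and their mRNAs begin with a pyrimidine tract through which growth signals control translation. ZMYND11 is a co-repressor that reads a histone mark laid down over the bodies of transcribed genes. ETS1 and ETS2 are transcription factors of the ETS family, which bind DNA around the core GGAA.

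RefSeq promoter sequences of GRCh38.p14 were at hand for 7 of the 9 genes, and RPL8 and RPS2 were not among them. The 250 bases before the RefSeq gene start are shown for 4 genes, 5′ to 3′ on the strand of the gene, with GGAA and its reverse complement TTCC in capitals. RPL18 is shown because a knockout ZMYND11 region covered its start, EEF1A1 and RPLP0 because an ETS2 region lay at their start, and RPS6 because it was the gene without any ETS2 region.
RPL18, chr19:48619179-48619428, minus strand: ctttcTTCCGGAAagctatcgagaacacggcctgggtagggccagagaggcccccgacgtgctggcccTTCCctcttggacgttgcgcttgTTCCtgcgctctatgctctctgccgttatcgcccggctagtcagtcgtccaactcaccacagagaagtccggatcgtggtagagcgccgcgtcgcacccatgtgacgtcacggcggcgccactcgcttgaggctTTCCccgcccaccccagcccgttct
EEF1A1, chr6:73521033-73521282, minus strand: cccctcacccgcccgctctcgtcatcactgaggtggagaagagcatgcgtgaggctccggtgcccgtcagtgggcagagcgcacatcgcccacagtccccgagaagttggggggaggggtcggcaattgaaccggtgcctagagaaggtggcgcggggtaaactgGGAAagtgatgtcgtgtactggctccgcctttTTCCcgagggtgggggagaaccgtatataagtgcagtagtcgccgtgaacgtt
RPLP0, chr12:120201112-120201361, minus strand: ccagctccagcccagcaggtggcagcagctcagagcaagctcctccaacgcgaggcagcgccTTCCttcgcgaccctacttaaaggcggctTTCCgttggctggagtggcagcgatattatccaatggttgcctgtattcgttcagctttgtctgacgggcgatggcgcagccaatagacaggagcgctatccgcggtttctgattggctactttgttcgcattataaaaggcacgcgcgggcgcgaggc
RPS6, chr9:19380237-19380486, minus strand: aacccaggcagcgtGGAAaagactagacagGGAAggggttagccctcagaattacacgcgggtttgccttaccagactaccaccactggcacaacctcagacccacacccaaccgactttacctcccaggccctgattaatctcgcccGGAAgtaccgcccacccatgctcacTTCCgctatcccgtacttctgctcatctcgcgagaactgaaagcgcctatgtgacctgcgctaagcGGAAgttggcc
These sequences are on GRCh38.p14 and the regions are on hg19, so the coordinates of the sequences cannot be set beside those of the regions. The start may also differ between the builds, since the hg19 span was longer than the RefSeq span by 244 bp for RPL18, by 137 bp for RPLP0 and by 18 bp for RPS6, and of equal length for EEF1A1.

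Counted on both strands, GGAA occurred 5 times before RPL18, 2 times before EEF1A1, 2 times before RPLP0 and 5 times before RPS6. It was found before 6 of the 7 genes, all but EEF2, against 92.8% of all 27305 promoters over the same 250 bases. The longer CCGGAA, which contains GGAA, was found before 4 of the 7 genes (RPL3, RPL13A, RPL18 and RPS6), against 14.8% of all promoters. RPL18 had it 2 times, as both strands of the palindrome TTCCGGAA. CCGGAAGT, which contains CCGGAA, was found before 1 of the 7 genes, RPS6, against 3.64% of all promoters. The AP-1 motif TGACTCA was found before 0 of the 7 genes, against 4.16% of all promoters. The window of 250 bases can hold the ETS2 regions at the starts at most in part. On hg19, 406 of the 495 bp of the EEF1A1 region lay inside the gene and the RPLP0 region began 190 bp before the gene start. How much the windows and these regions share, if anything, was not determined, since they are on different builds. A match is a description of the letters and not a binding site.

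In ETS1-knockout cells both factors were listed mostly past the end of these genes, that is beyond the annotated gene end in the direction of transcription, and in parental cells ZMYND11 was listed within the genes. By their midpoints, 8 of the 10 ETS2 regions, 11 of the 15 knockout ZMYND11 regions and 0 of the 4 parental ZMYND11 regions lay past the gene end. Inside the gene spans lay 1 ETS2 midpoint, 1 knockout ZMYND11 midpoint and 4 parental ZMYND11 midpoints. Before the gene starts lay 1 ETS2 midpoint, 3 knockout ZMYND11 midpoints and 0 parental ones. The searched windows were of nearly equal total length, 45 kb before the starts, 45.1 kb inside the genes and 45 kb past the ends. How regions fall around genes elsewhere in the lists was not analysed here, so nothing shows whether the position past the end is particular to these genes. Whether regions past an end lie in a neighbouring gene or at its start was not analysed either. Position alone therefore does not assign them to the translation genes.

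**Figure D1:**
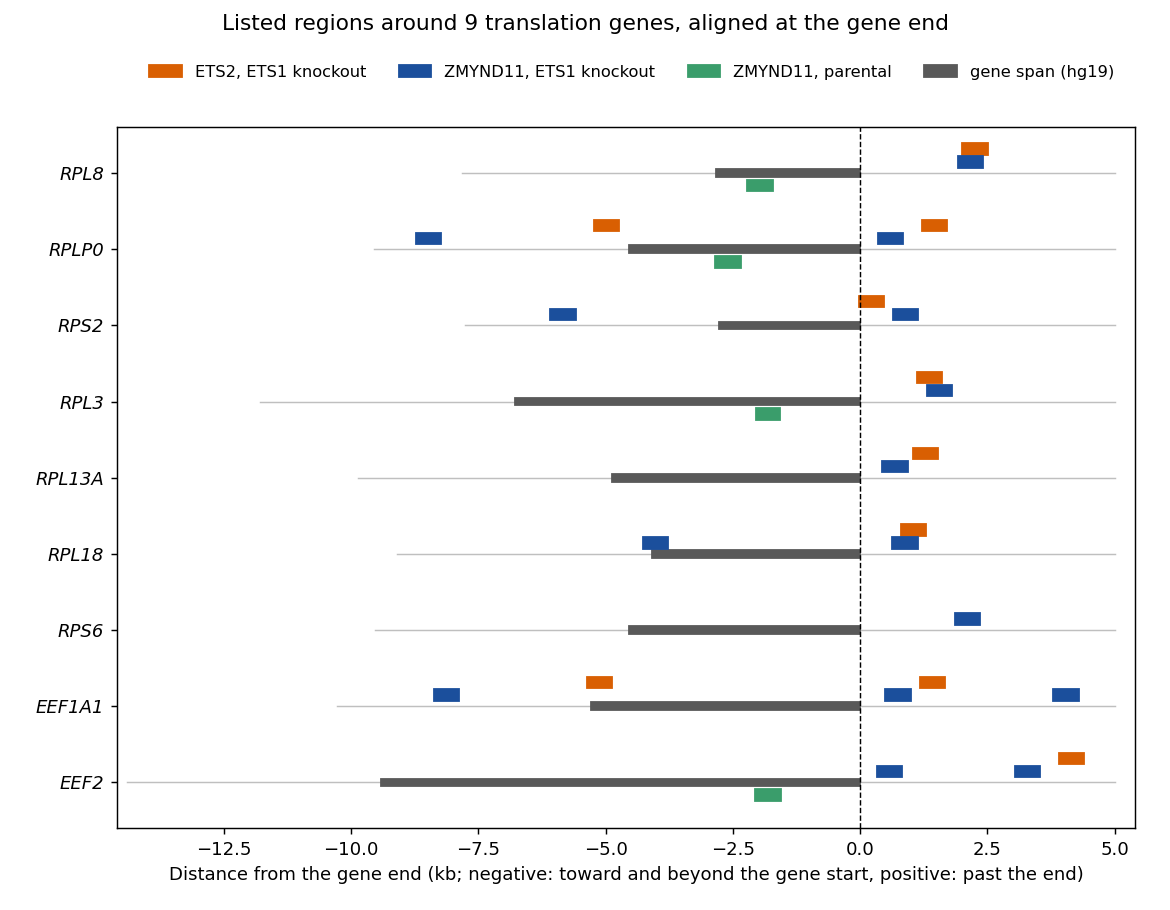
Each row is 1 gene drawn 5′ to 3′ from left to right, aligned at its end (dashed line at 0 kb), with the hg19 gene span as a grey bar, the searched flanks as a thin line and each listed region as a coloured block drawn to scale. Knockout ZMYND11 blocks lie right of the dashed line at all 9 genes and ETS2 blocks at 8, whereas the 4 parental ZMYND11 blocks lie on the gene spans of RPL8, RPLP0, RPL3 and EEF2.

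**Figure D2:**
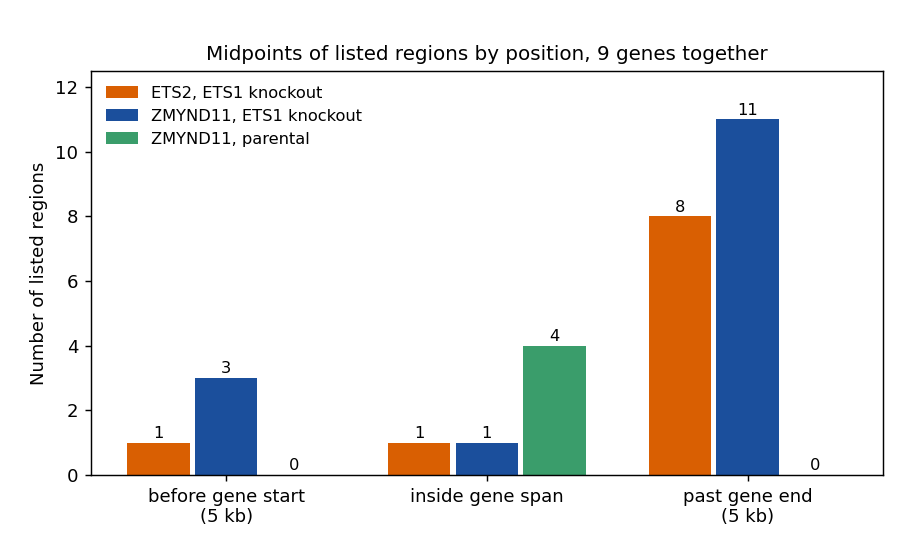
Bars give the number of listed regions whose midpoint lay before the gene start, inside the gene span or past the gene end, summed over the 9 genes, for ETS2 in knockout cells, ZMYND11 in knockout cells and ZMYND11 in parental cells. Past the gene end there were 8, 11 and 0 regions.

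Every one of the 9 genes had a knockout ZMYND11 region, 8 had an ETS2 region (all but RPS6) and 4 had a parental ZMYND11 region (RPL8, RPLP0, RPL3 and EEF2). The genes were chosen by the presence of regions at them, so these counts are not a result about translation genes. The share of all genes with a region within 5 kb was not determined. The members made up 0.98% of the ETS2 list, 0.0957% of the knockout ZMYND11 list and 0.746% of the parental ZMYND11 list. Regions in these genes were of ordinary width, with medians of 495 bp for ETS2, 499 bp for knockout ZMYND11 and 498 bp for parental ZMYND11, against 497, 496 and 493 bp over the whole lists.

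Among the genes of the large subunit, RPL3 encodes a core protein next to the peptidyl transferase centre. Its ETS2 region, chr22:39707273-39707764, was at place 103 of 1020 with the midpoint 1369 bp past the gene end. Its knockout ZMYND11 region, chr22:39707077-39707578, was at place 80 of 15676 with the midpoint 1560 bp past the end. The parental ZMYND11 region, chr22:39710458-39710940, was at place 12 of 536 and inside the gene, at 73.3% of the way from start to end. The regions of both knockout lists overlapped by 305 bp, and the parental region was 3372 bp from the knockout ZMYND11 region by midpoints.

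RPL8 encodes another core protein of the large subunit. Its ETS2 region, chr8:146012645-146013146, was at place 314 with the midpoint 2255 bp past the gene end. The knockout ZMYND11 region, chr8:146012733-146013233, was at place 140 with the midpoint 2167 bp past the end. In parental cells the ZMYND11 region, chr8:146016869-146017364, was at place 8, the earliest of the parental regions in these genes, and lay at 30.3% of the gene span. The midpoints of the ETS2 and knockout ZMYND11 regions were 88 bp apart, the closest such pair of the set, and the parental region was 4133 bp away from the knockout ZMYND11 region.

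RPLP0 encodes the protein at the base of the ribosomal stalk, which receives the elongation factors. It had 2 ETS2 regions, chr12:120632775-120633274 at place 373 with the midpoint 1465 bp past the gene end, and chr12:120639228-120639716 at place 650 with the midpoint 434 bp before the gene start. It also had 2 knockout ZMYND11 regions, chr12:120633638-120634137 at place 136 with the midpoint 602 bp past the end, and chr12:120642720-120643220 at place 3084 with the midpoint 3932 bp before the start. The parental ZMYND11 region, chr12:120636837-120637338, was at place 43 and at 42.9% of the gene span. The ETS2 region before the start, 190 bp from it at its near edge, had no knockout ZMYND11 midpoint nearer than 3498 bp, so the start of RPLP0 was listed for ETS2 alone.

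RPL13A encodes a large-subunit protein that also serves, off the ribosome, in silencing inflammatory mRNAs. Its ETS2 region, chr19:49996607-49997105, was at place 159 with the midpoint 1291 bp past the gene end. The knockout ZMYND11 region, chr19:49996002-49996502, was at place 72, the earliest of the knockout ZMYND11 regions in these genes, with the midpoint 687 bp past the end. No parental region was listed. RPL13A is the only gene of the 9 on the plus strand, and its knockout regions lay at higher coordinates than the gene, whereas at the other genes regions past the end lie at lower coordinates.

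RPL18 encodes a further protein of the large subunit. Its ETS2 region, chr19:49117289-49117790, was at place 775 with the midpoint 1045 bp past the gene end. Of its 2 knockout ZMYND11 regions, chr19:49117450-49117948 at place 244 had its midpoint 885 bp past the end. The other, chr19:49122360-49122844 at place 578, had its midpoint 73 bp inside the gene and was the only knockout ZMYND11 region that touched a gene span. It covered the hg19 gene start, where no ETS2 region was listed. The hg19 span of RPL18 was 244 bp longer than the RefSeq span, and whether the midpoint lies inside the RefSeq span was not determined. On GRCh38.p14 the next protein-coding gene on the start side is SPHK2, which is transcribed in the opposite direction, so position alone does not assign the region to RPL18. On that build the next protein-coding gene past the end is FAM83E, and whether the regions there lie in it was not analysed here.

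Of the small-subunit genes, RPS2 encodes a protein near the mRNA entry channel. Its ETS2 region, chr16:2011588-2012080, was at place 196 with the midpoint 227 bp past the gene end, and it reached 19 bp into the gene span. The knockout ZMYND11 region past the end, chr16:2010924-2011423 at place 88, had its midpoint 888 bp from it, on the far side of the ETS2 region. A late-listed knockout ZMYND11 region, chr16:2017651-2018148 at place 13834, lay with its midpoint 3072 bp before the start. No parental region was listed within 5 kb, and the nearest outside, chr16:2024328-2024813 at place 120, was 9501 bp from the gene. On GRCh38.p14 NDUFB10 is the next protein-coding gene past the end of RPS2, and whether the regions lie in it was not analysed here.

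RPS6 encodes the small-subunit protein that S6 kinases phosphorylate when growth signals are active. It had 1 region, for knockout ZMYND11, chr9:19373353-19373848 at place 798, with the midpoint 2113 bp past the gene end. This was the latest in its list among the first knockout ZMYND11 regions of the 9 genes. It was also the only region of that list within 100 kb of the gene. No ETS2 region and no parental ZMYND11 region lay within 100 kb of RPS6.

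EEF1A1 encodes the factor that delivers aminoacyl-tRNA. An ETS2 region, chr6:74230349-74230844 at place 191, covered its start with the midpoint 159 bp inside the gene, and another, chr6:74223809-74224304 at place 768, had its midpoint 1417 bp past the end. Here the region at the start came well before the region past the end in the ETS2 list, the reverse of RPLP0, where the region past the end came first. Of 3 knockout ZMYND11 regions, chr6:74224480-74224977 at place 132 had its midpoint 745 bp past the end. The other 2 were listed late, chr6:74233346-74233843 at place 10046 with the midpoint 2839 bp before the start, and chr6:74221178-74221676 at place 14060 with the midpoint 4046 bp past the end. The ETS2 region over the start was 2998 bp from the nearest knockout ZMYND11 midpoint.

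EEF2 encodes the translocation factor and is the longest of the genes. Its ETS2 region, chr19:3971657-3972149 at place 273, had its midpoint 4151 bp past the gene end. Knockout ZMYND11 was listed at chr19:3972515-3973015, place 98, with the midpoint 3289 bp past the end, and at chr19:3975228-3975729, place 456, with the midpoint 576 bp past the end. The parental ZMYND11 region, chr19:3977617-3978118 at place 19, was inside the gene at 80.7% of its span. The parental region and the nearer knockout ZMYND11 region thus lay on opposite sides of the gene end, 2389 bp apart by midpoints.

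The comparison of ZMYND11 between ETS1-knockout and parental cells asks where the co-repressor sat when ETS1 was absent. Of the 15 knockout regions 0 overlapped a parental one (background over the whole knockout list 0.357%), and of the 4 parental regions 0 overlapped a knockout one (background over the whole parental list 10.4%). With such backgrounds and so few members, 0 overlaps are near what the whole lists show and are not a result about these genes. In the 4 genes with both, the nearest knockout midpoint was 2389 to 4133 bp from the parental one, and in each it lay past the gene end while the parental region lay wholly inside the gene. The parental list held 536 regions and the knockout list 15676, at unknown depth and threshold. Which of depth, threshold and binding set these lists apart was not tested.

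Places in the lists were compared with the first 10% of each list. Of the 10 ETS2 regions 0 were in the first 10% of their list (background 10%), with the earliest at place 103 just beyond the first 102. Of the 15 knockout ZMYND11 regions 11 were in the first 10% (background 10%), and of these 10 lay past a gene end and 1 over the start of RPL18. All 4 parental ZMYND11 regions were in the first 10% of their list (background 9.89%). Median places were 28.8% of the list length for ETS2, 1.56% for knockout ZMYND11 and 2.89% for parental ZMYND11. The genes were chosen with such places in view, so nothing is read from them. The 4 late knockout ZMYND11 regions, at places 3084 to 14060, were those whose midpoints lay 2839 to 3932 bp before the starts of EEF1A1, RPS2 and RPLP0, and 4046 bp past the end of EEF1A1.

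**Figure D3:**
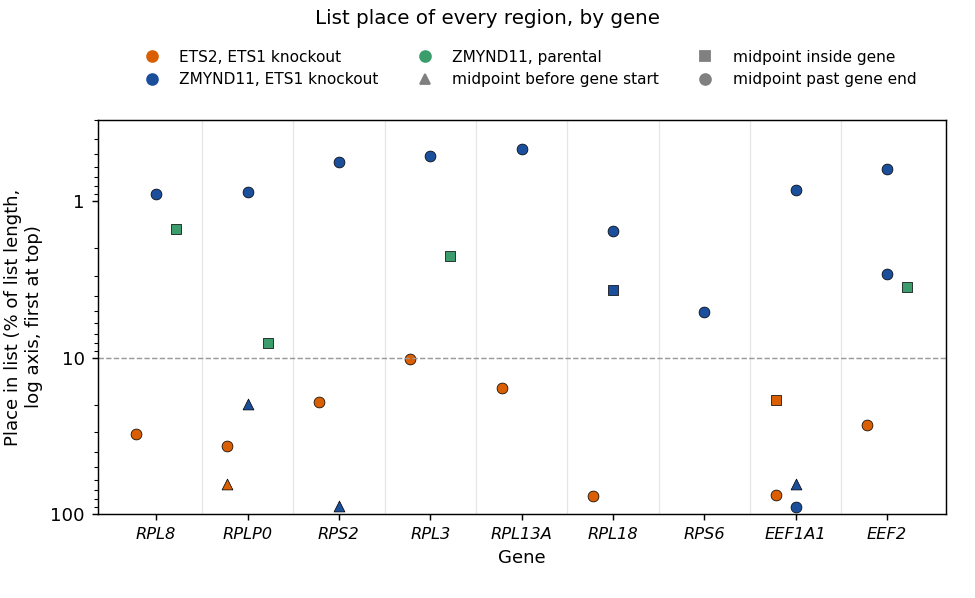
Place of each region as a percentage of the length of its own list on a log axis with the first place at the top, by gene, for ETS2 in knockout cells, ZMYND11 in knockout cells and ZMYND11 in parental cells, with the marker shape giving the position and the dashed line at 10%. Knockout ZMYND11 regions past a gene end lie above the line at all 9 genes, apart from a second one at EEF1A1 at 89.7%, and no ETS2 region lies above it.

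The comparison of ETS2 with ZMYND11 in ETS1-knockout cells asks whether both occupied the same places. In these genes 3 of the 10 ETS2 regions shared 1 bp or more with a knockout ZMYND11 region (background over the whole ETS2 list 57.1%), at RPL3, RPL8 and RPL18. With midpoints within 1 kb counted instead, 8 of 10 did (background 71.9%), and the remaining 2 were the regions at the starts of EEF1A1 and RPLP0. Seen from ZMYND11, 3 of 15 knockout regions overlapped an ETS2 region (background 3.71%). Of the 11 that were early in the list 3 overlapped, against 29.6% of the first 10% of the whole list, and 8 had an ETS2 midpoint within 1 kb, against 36.8%. No test stands behind these shares, since the genes were chosen with the lists known.

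At the 8 genes with both factors past the end, the pair of regions with the closest midpoints was taken per gene. The midpoints of these pairs were 88 to 863 bp apart, with a median of 632.5 bp. This choice left out a knockout ZMYND11 region 4046 bp past the end of EEF1A1, farther than the ETS2 region there. At EEF2 it left out one 576 bp past the end, nearer than the ETS2 region. The ETS2 midpoint was the farther one from the gene at 6 of the 8 (RPL8, RPLP0, RPL13A, RPL18, EEF1A1 and EEF2) and the nearer one at RPS2 and RPL3. At RPL8, RPL18 and RPL3, where the regions overlapped, the midpoints were only 88, 160 and 191 bp apart. Whether ETS2 is usually the farther one elsewhere in the lists was not analysed. At 5 of the 8 the regions did not overlap, with gaps of 105 bp at RPL13A, 165 bp at RPS2, 176 bp at EEF1A1, 364 bp at RPLP0 and 366 bp at EEF2. Over the whole ETS2 list 733 of 1020 regions had a knockout ZMYND11 midpoint within 1 kb, and 582 overlapped a knockout ZMYND11 region. The genes were chosen with the lists known, so this difference was not tested. Across the 8 closest pairs the median distance past the end was 1393 bp for ETS2 and 886.5 bp for knockout ZMYND11.

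**Figure D4:**
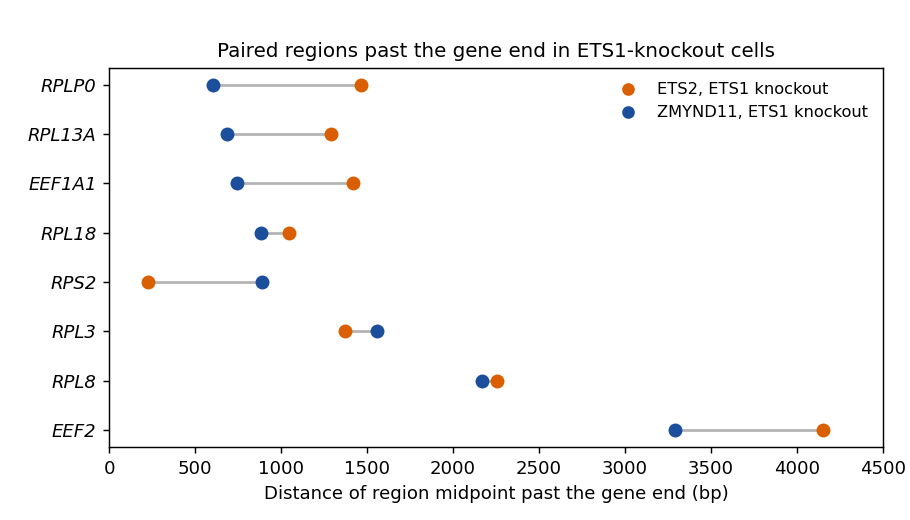
Distance of the region midpoints past the gene end in bp, for ETS2 and for ZMYND11 in ETS1-knockout cells, at the 8 genes with both, joined by a line and sorted by the distance of ZMYND11. Only the pair with the closest midpoints is drawn per gene. The ETS2 point lies farther from the gene at 6 genes and nearer at RPS2 and RPL3.

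None of the 10 ETS2 regions overlapped a parental ZMYND11 region (background 1.76%), and none of the 4 parental regions overlapped an ETS2 region (background 3.36%). The nearest ETS2 midpoint was 2385 bp from the parental one at RPLP0, 3181 bp at RPL3, 4221 bp at RPL8 and 5964 bp at EEF2.

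Neighbouring regions of the same list were common around some genes and missing around others. Within 10 kb of another midpoint of the same list lay 4 of the 10 ETS2 regions (background 28.5%), 11 of the 15 knockout ZMYND11 regions (background 64.5%) and 0 of the 4 parental ZMYND11 regions (background 6.53%), all near the shares of the whole lists. Within 100 kb of the gene, knockout ZMYND11 had 12 regions at RPLP0, 11 at RPS2, 11 at EEF2 and 10 at RPL8, but 2 at RPL3 and 1 at RPS6. At RPL3 the region past the end, at place 80, therefore stood almost alone, 68001 bp from the next midpoint of its list. The searched edge at 5 kb fell in a gap for each list. For ETS2 the outermost region inside was 3905 bp from EEF2 and the next outside 15968 bp from RPS2. For knockout ZMYND11 they were 3797 bp from EEF1A1 and 6868 bp from RPS2.

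Many genes of the translation machinery have processed copies elsewhere in the genome, which hold exon sequence and can share reads with the parent gene. RefSeq lists 55 pseudogenes named after RPS2, 50 after EEF1A1, 26 after RPS6, 25 after RPL13A, 13 each after RPL3 and RPL18, 12 after RPLP0, 5 after RPL8 and 0 after EEF2. The 4 genes with a parental region had 13 or fewer such copies, as RPL18 did without one, and the other 4 genes had 25 or more. How the authors placed reads that match several sites is not given in the sources used here. The part of these copies in the positions was not tested. Small RNA genes are nested in RPS2, RPL3, RPL13A, EEF2 (snoRNAs) and RPL8 (MIR6850) on GRCh38.p14, and whether a region lies over one was not analysed here.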

How the data were processed

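Each list was used as deposited: the authors' files give a chromosome, a start and an end per region, without score, p-value or read count, and whether starts count from 0 or 1 is not stated. The submitters' processing notes name Bowtie2 2.0.6 and hg19. The caller of the regions, the threshold, a control library and the depth are not given in any source used here. Groups were taken from the sample titles, with 1 library each, so no test between groups was possible.

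The 9 genes, their hg19 spans and the 5 kb flanks came with the task, and members and lists were chosen with earlier results of these data known. All regions of the 9 genes are named. Gene direction matched the RefSeq promoter table for the 7 genes in it and rested on common knowledge alone for RPL8 and RPS2. Positions are those of midpoints, rounded down to whole bp. An overlap of 1 bp or more counted as shared. Backgrounds are shares over whole lists. Gene names of neighbours came from RefSeq on GRCh38.p14. The planned count over other translation genes needed an annotation of hg19 and was not run. Alternatives changed the flank, the overlap rule, the part of the list used and the base of starts. Software was scipy 1.17.1, pandas 2.3.3, numpy 2.4.6 and matplotlib 3.10.9 under Python 3.11.15.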

Additional observations from a re-analysis of the deposited data

How the results depend on the processing

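Of 105 alternative values, 85 stayed within 1.5 times the value in the report and 20 did not. The 85 include all overlap counts with parental ZMYND11 and all counts of parental regions past the end. These were 0 under every setting, so the 85 say little about how stable the other counts are. With no flank the number of regions was 2 for ETS2 and 1 for knockout ZMYND11, in 2 genes and 1 gene, median places were 19.0% and 3.69% of the list, and 0 regions of either list overlapped the other. With a flank of 1 kb there were 4 ETS2 regions in 4 genes and 7 knockout ZMYND11 regions, whose median place was 0.868%, and 1 region overlapped the other list, counted from either side. Past the gene end that flank, chosen after seeing the data, left 2 ETS2 and 6 knockout ZMYND11 regions. These values follow from the positions, since most regions lay in the flanks, and the 4 parental ZMYND11 regions were found under every flank. With the first 50% of each list the median place of knockout ZMYND11 was 0.880%. By midpoint 1 ETS2 region lay inside a gene, against 2 by overlap. With midpoints within 1 kb, 8 of the 10 ETS2 regions (background 71.9%) and 8 of the 15 knockout ZMYND11 regions met the other list. The share of the whole knockout ZMYND11 list under that rule was not determined. Requiring the whole region past the end and a flank of 10 kb, also chosen after seeing the data, kept both counts past the end within 1.5 times. No replicate could be left out. No paired analysis was possible because each group has 1 library and no result comes from a test. Depth is unknown, so whether a region missing from a list lies under a threshold could not be determined.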
